A study of Danio rerio with 6 samples.

Results

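miR-132 and miR-212 are a pair of microRNAs (miRNAs) whose genes lie side by side. All 5 rows named for them in the deposited table were taken, dre-miR-132-5p, dre-miR-132-3p, dre-miR-212-5p, dre-miR-212-3p and dre-miR-212, of 414 rows in all. The rule used their names and no measured value, but the choice was made with earlier results of these data known. The suffixes 5p and 3p give the arm of the hairpin from which a strand is cut, and dre-miR-212 carries no arm in its name. Small RNA was sequenced from ZF4, a fibroblast line made from zebrafish embryos. 3 control samples were grown at 28°C and 3 cold acclimation samples were kept at 18°C for 30 days, in the same medium and under the same CO2. The study's abstract gives 30 days for the control condition as well, which the sample labels do not state. The submitters call the 3 samples of a condition biological replicates, and ZF4 is 1 cell line, so p-values measure only the spread between cultures of that line. Levels are given as CPM, the number of reads of a row for every 1000000 reads that the table holds for its library, and strand length does not enter the value.

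In mammals, miR-132 and miR-212 are cut from 1 primary transcript that the transcription factor CREB induces in stimulated neurons, and miR-132 is known for promoting the growth of dendrites and for tuning synapses. Outside the nervous system the pair has been studied in blood vessels, heart and immune cells. Their 3p strands share the seed, the stretch near the 5′ end that pairs with target mRNAs, and these are the strands usually loaded as guides in mammals, while the 5p strands have other seeds. In the RefSeq annotation of the GRCz12tu assembly the pair occurs in 2 places. Gene dre-mir-212 is next to dre-mir-132-1 in a stretch that overlaps tp53i13, with hic1 and dph1 as the nearest other coding genes. In the other place mir212-2 is next to dre-mir-132-2 between smg6 and ovca2. No gene lies between the miRNA genes in either place (0 in both). The table has 1 row for each miR-132 strand, so the 2 miR-132 genes cannot be told apart in it. The sources do not state the rule for a read that fits more than 1 row. Reads of dre-miR-212 and dre-miR-212-3p may therefore have been shared, and their split is uncertain.

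The control libraries held 13710892 to 14960610 miRNA reads and the cold acclimated ones 11748241 to 13966282. One read was worth 0.0668 to 0.0851 CPM. In every cold acclimated library these reads were a smaller part of the study's clean reads than in any control library. CPM does not take this difference into account. Control replicate 3 stood apart from the other controls, with 17 of the 310 tested miRNAs lower and 7 higher by more than 1 on the log2 scale, but none of the 5 strands was among them (0 in any library). The fibroblast markers were abundant, with a summed level of 404200 to 408800 CPM in control and 389500 to 428900 CPM in cold acclimated libraries. Nearly all of this sum was dre-miR-21, and control replicate 3 was low in several of the other markers. There dre-miR-143 had 374 CPM, against 4765 and 4665 CPM in control replicates 1 and 2. For dre-miR-214 the values were 456 CPM against 1722 and 1637 CPM. By contrast, dre-miR-21, dre-miR-29a and dre-miR-29b were higher in control replicate 3 than in the other controls. The median log2 fold change of the 9 markers was -0.45, and 1 of them fell (dre-miR-199-3p, from 4970 ± 1700 to 2310 ± 186 CPM, SD, n = 3 each), where 14.5% of the tested miRNAs fell. The mean of dre-miR-214 was 1270 ± 708 CPM in control and 365 ± 37.4 CPM in cold acclimated cells (adjusted p = 0.0122 from limma, not past the threshold of 0.01 used throughout). Markers of endothelium, blood, muscle and epithelium were low in every library, with summed levels of at most 1.67, 4.37, 5.62 and 20.2 CPM. Of the 7 neuron markers, none was at 0 in all libraries. Their summed level was 687 to 933 CPM in control and 912 to 1346 CPM in cold acclimated libraries, nearly all of it dre-miR-128-3p and dre-miR-138-5p, and 0 of the 5 tested rose or fell by limma (1, dre-miR-128-3p, at an unadjusted p of 0.0485). The defining neuronal strand dre-miR-124-3p lay between 0 and 0.401 CPM.

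All 5 strands were expressed in every library, at low to middling levels for this cell line. The most abundant was dre-miR-132-5p, at rank 134 of 349 known miRNAs by mean level, followed by dre-miR-132-3p at rank 161. The miR-212 strands were rarer, with dre-miR-212-5p at rank 194, dre-miR-212-3p at rank 206 and dre-miR-212 at rank 229. Together the 5 strands made up 0.00556% to 0.00601% of the miRNA reads in control libraries and 0.00992% to 0.0127% in cold acclimated libraries. In every library dre-miR-132-5p exceeded dre-miR-132-3p, which exceeded every miR-212 strand. The order below that was less firm. In control cells the ranges of dre-miR-212-5p and dre-miR-212-3p overlapped, as did those of dre-miR-212-3p and dre-miR-212, while in cold acclimated cells dre-miR-212-5p lay above dre-miR-212-3p without overlap. The closest values there, 8.94 and 8.51 CPM, lay near each other, and in cold acclimation replicate 1 the strands had 108 and 86 reads.

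dre-miR-132-5p, the more abundant strand of miR-132, had 43.2, 35.5 and 37.6 CPM in control replicates 1, 2 and 3, and 85.5, 69.4 and 62.4 CPM in cold acclimation replicates 1, 2 and 3. Every cold acclimated library was above every control library. The mean went from 38.8 ± 3.96 to 72.4 ± 11.8 CPM (SD, n = 3 each), a ratio of 1.87. On log2(CPM + 1), compared with limma over the 310 miRNAs with a mean above 1.5 CPM, the log2 fold change was 0.88 (standard error 0.20, 95% interval 0.43 to 1.32, adjusted p = 0.0058).

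dre-miR-132-3p, the strand that carries the shared seed, had 9.89, 11.7 and 13.7 CPM in the control libraries and 21.3, 31.9 and 20.8 CPM in the cold acclimated ones. The conditions again did not overlap, and cold acclimation replicate 2 was the highest of all. The mean went from 11.8 ± 1.92 to 24.7 ± 6.27 CPM (SD, n = 3 each; ratio 2.09), which gave 0.99 as the log2 fold change (standard error 0.24, 95% interval 0.47 to 1.52, adjusted p = 0.0069 from limma).

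dre-miR-212-5p changed most. It had 3.61, 3.06 and 2.97 CPM in the control libraries, from 54, 42 and 43 reads, and 8.94, 12.002 and 9.81 CPM in the cold acclimated ones, from 108 to 141 reads. The exact Poisson 95% intervals of these levels, which cover counting error alone, reached at most 4.71 CPM in control and began at 7.34 CPM in cold acclimated libraries, so they did not overlap either. The mean went from 3.21 ± 0.347 to 10.3 ± 1.58 CPM (SD, n = 3 each; ratio 3.19). The log2 fold change was 1.41 (standard error 0.21, 95% interval 0.95 to 1.87, adjusted p = 0.00050 from limma), and among the 5 strands this one alone also passed the 2.5-fold threshold of the study. The study applied that threshold to results from DESeq, whereas here it was applied to fold changes of CPM + 1. Some processing choices took the fold below it, such as clean reads as library sizes (log2 fold change 1.12). dre-miR-212-5p is the partner of the strand that carries the shared seed.

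dre-miR-212-3p had 1.80, 2.77 and 3.45 CPM in the control libraries and 7.12, 8.51 and 4.37 CPM in the cold acclimated ones. No cold acclimated library overlapped the controls, but cold acclimation replicate 3 came close to control replicate 3, with Poisson intervals of 3.34 to 5.61 and 2.56 to 4.55 CPM. The mean went from 2.68 ± 0.826 to 6.67 ± 2.11 CPM (SD, n = 3 each; ratio 2.49). The log2 fold change was 1.05 (standard error 0.27, 95% interval 0.44 to 1.66), and it missed the threshold by little (adjusted p = 0.0109 from limma).

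The row dre-miR-212 had 1.27, 2.55 and 2.35 CPM in the control libraries and 3.73, 4.68 and 1.79 CPM in the cold acclimated ones, from 19 to 55 reads. Here the conditions overlapped, since cold acclimation replicate 3 lay below control replicates 2 and 3. The mean was 2.06 ± 0.689 CPM in control and 3.40 ± 1.47 CPM in cold acclimated cells (SD over n = 3 in each, ratio 1.65). The log2 fold change of 0.49 had a 95% interval of -0.18 to 1.16 (adjusted p = 0.198 from limma). For this row no difference beyond the spread between libraries was detected.

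**Figure D1:**
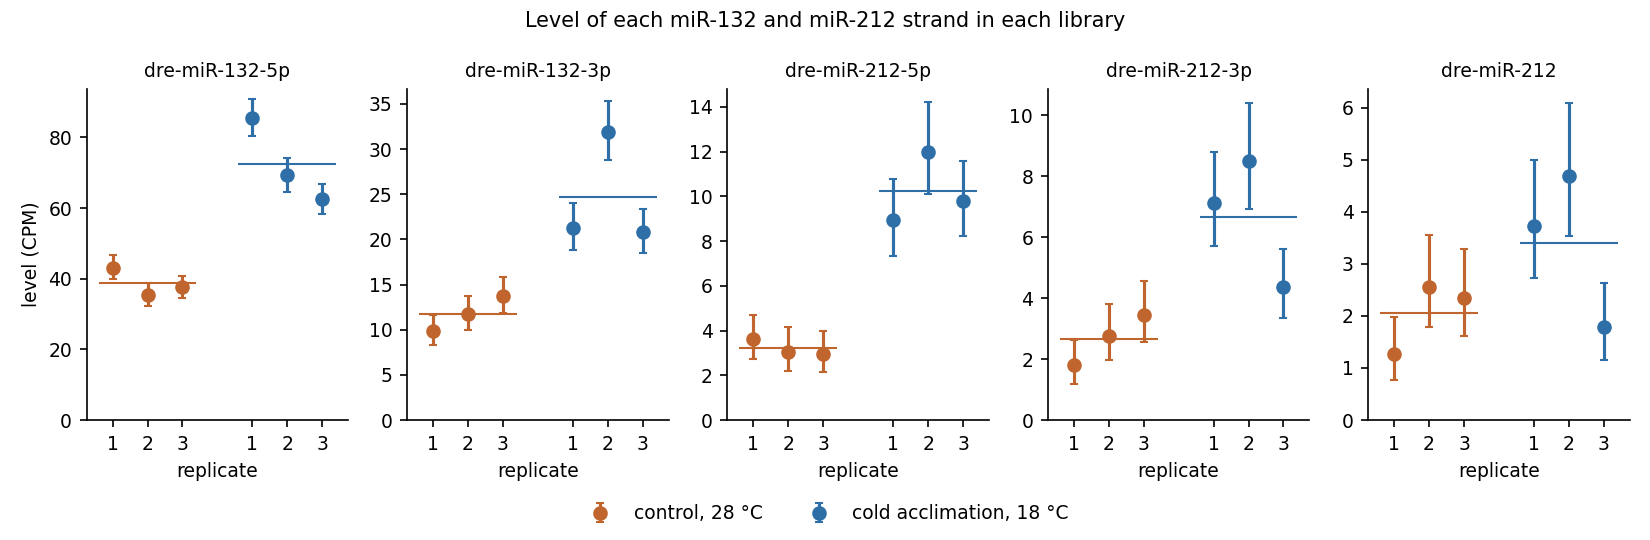
Level in CPM of each of the 5 strands in each of the 6 libraries, with 1 panel per strand and the replicate number on the x axis. Bars are exact Poisson 95% intervals of the reads and horizontal lines are means of 3 libraries. For dre-miR-212-5p the cold acclimated libraries sit between 8.94 and 12.002 CPM, above all controls, and for dre-miR-212 the conditions overlap.

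Of the 5 strands, 3 rose and 0 fell at an adjusted p under 0.01, where 16.5% of the 310 tested miRNAs rose and 14.5% fell. In 4 of the 5 every cold acclimated library was above every control library, which held for 29.7% of the tested miRNAs, and 1 passed the fold threshold upwards, against 7.42%. The median log2 fold change was 0.99 over the 5 strands and 0.019 over all tested miRNAs. In order of log2 fold change dre-miR-212-5p was at place 19 of 310, dre-miR-212-3p at 35, dre-miR-132-3p at 40, dre-miR-132-5p at 48 and dre-miR-212 at 87. The 1 CPM added before taking logs shrinks the fold changes of rare rows more than those of abundant ones. With 0.1 CPM added instead, the log2 fold change was 1.64 rather than 1.41 for dre-miR-212-5p. For dre-miR-132-5p it was 0.89 rather than 0.88. Strands of 1 hairpin share their transcript and are not independent of each other. In bulk RNA, more cells that express a miRNA and more of it per cell cannot be told apart. The ranges of the summed neuron markers, 687 to 933 and 912 to 1346 CPM, overlapped, with the higher values in cold acclimated libraries, and the median log2 fold change of the fibroblast markers was -0.45. Their part in the result was not tested.

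**Figure D2:**
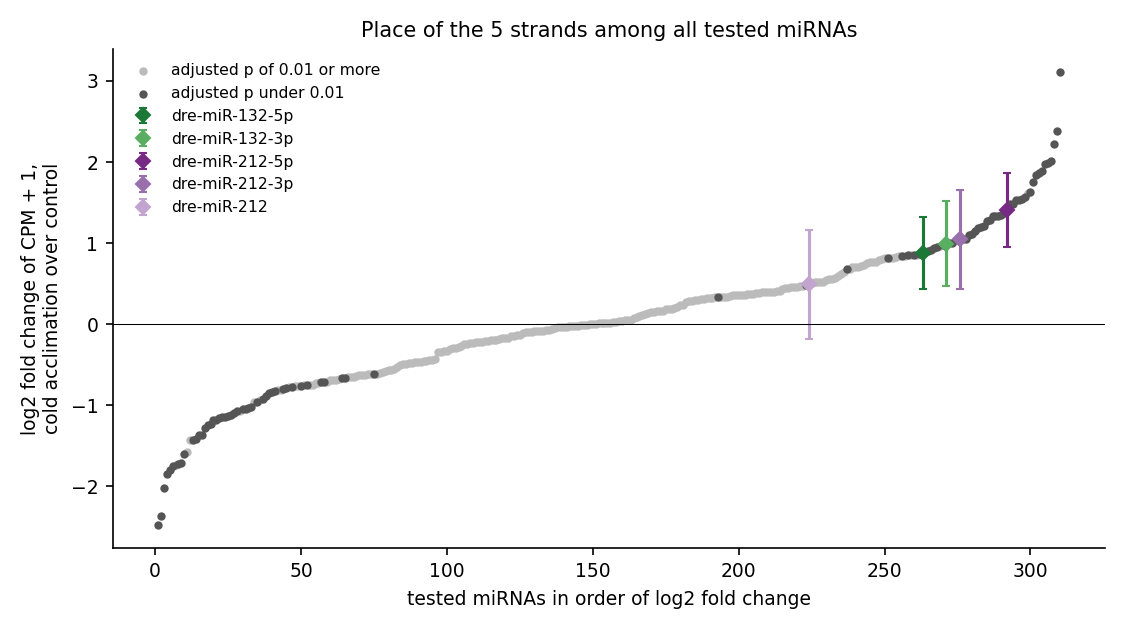
Log2 fold change of cold acclimation over control on log2(CPM + 1) for the 310 tested miRNAs, ordered from lowest to highest. Dark points have an adjusted p under 0.01, and diamonds with 95% intervals mark the 5 strands, all of which lie above 0.

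The call for dre-miR-212-5p held with every library left out in turn, with a log2 fold change of at least 1.30 and an adjusted p of at most 0.0040, and under every scaling tried. The calls for miR-132 did not. For dre-miR-132-5p the adjusted p was 0.0125 and 0.0250 when control replicate 1 or 2 was left out, and 0.0405 and 0.0188 when it was cold acclimation replicate 1 or 2. For dre-miR-132-3p it was 0.0254, 0.0202, 0.0214 and 0.0296 without the same libraries and 0.0124 without cold acclimation replicate 3. dre-miR-212-3p passed without control replicate 3 (adjusted p = 0.0020) or cold acclimation replicate 3 (0.0088). So 1 strand rose when replicate 1 or 2 of either condition was left out, 4 when it was control replicate 3, and 3 when it was cold acclimation replicate 3. Of all 310 tested miRNAs, 51 rose with every library in the fit. Without control replicates 1, 2 and 3 in turn 34, 39 and 68 rose. Without cold acclimation replicates 1, 2 and 3 in turn it was 24, 25 and 42. When the study's clean reads were taken as library sizes, the median log2 fold change of all tested miRNAs went from 0.019 to -0.23, and 32 of the 310 rose. Among the 5 strands dre-miR-212-5p alone rose there (log2 fold change 1.12, adjusted p = 0.0015 from limma). All 5 log2 fold changes stayed above 0 in every alternative tried, as the plot of fold changes by processing choice shows.

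**Figure D3:**
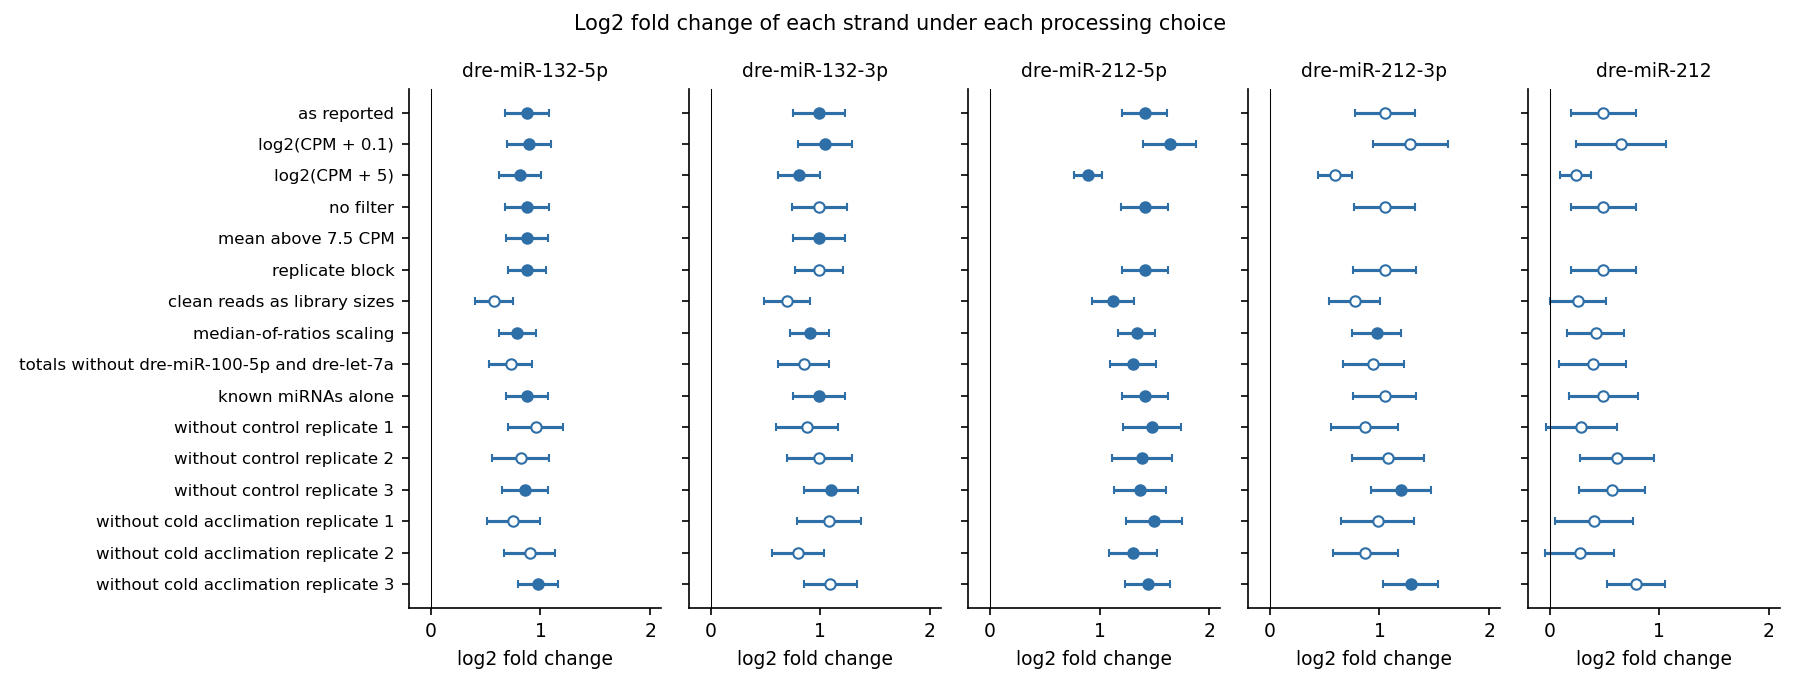
Log2 fold change of each strand, with its standard error, under each processing choice (y axis). Filled points have an adjusted p under 0.01. Those of dre-miR-212-5p are filled throughout, and those of dre-miR-212 are open throughout.

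The balance between the strands of a hairpin was asked next, since a ratio within a library does not depend on how the library was scaled. The 1 CPM added before taking logs in the limma test below brings back some of that dependence. A hairpin here means a pair of rows with the same name and the endings 5p and 3p. The rows of miR-132 do not separate its genes, so a shift between genes cannot be told apart from a change in strand balance. In ZF4 cells the 5p strand of miR-132 was the more abundant one in all 6 libraries, by a factor of 2.17 to 4.36 over the 3p strand. Of the 5p and 3p reads of miR-132, the 5p strand held 81.4%, 75.2% and 73.3% in control and 80.1%, 68.5% and 75.0% in cold acclimated libraries. The means were 76.6% ± 4.24 and 74.5% ± 5.81 (SD, n = 3 each), with the conditions overlapping. For miR-212 the strands were closer to parity. The 5p share was 66.7%, 52.5% and 46.2% in control and 55.7%, 58.5% and 69.2% in cold acclimated libraries, or 55.1% ± 10.5 and 61.1% ± 7.12 (SD, n = 3 each), leaving the row dre-miR-212 aside. That row carries no arm in its name and had 19 to 55 reads in a library, against 27 to 100 of dre-miR-212-3p. If its reads came from the 3p arm, every 5p share of miR-212 would be lower. Which strand leads for miR-212 therefore depends on this choice. Over the 54 hairpins with both strands above 1.5 CPM, 28 had more 5p than 3p reads, and 8 had a mean 5p share between 40% and 60%, miR-212 among them at 58.1%.

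Neither balance passed the test between the conditions. On log2(5p + 1) minus log2(3p + 1), compared with limma over the 54 hairpins, miR-132 changed by -0.11 (standard error 0.28, 95% interval -0.76 to 0.54, adjusted p = 0.739) and miR-212 by 0.36 (standard error 0.29, 95% interval -0.30 to 1.03, adjusted p = 0.313). Of the 54 hairpins, 22.2% changed at an adjusted p under 0.01. Exact two-sided permutation tests of the log2 ratio without a pseudocount gave p = 0.7 for miR-132 and p = 0.4 for miR-212, where 0.1 is the smallest p that 3 against 3 libraries allow. The sign for miR-132 turned without control replicate 1 (0.076) and without cold acclimation replicate 2 (0.10).

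**Figure D4:**
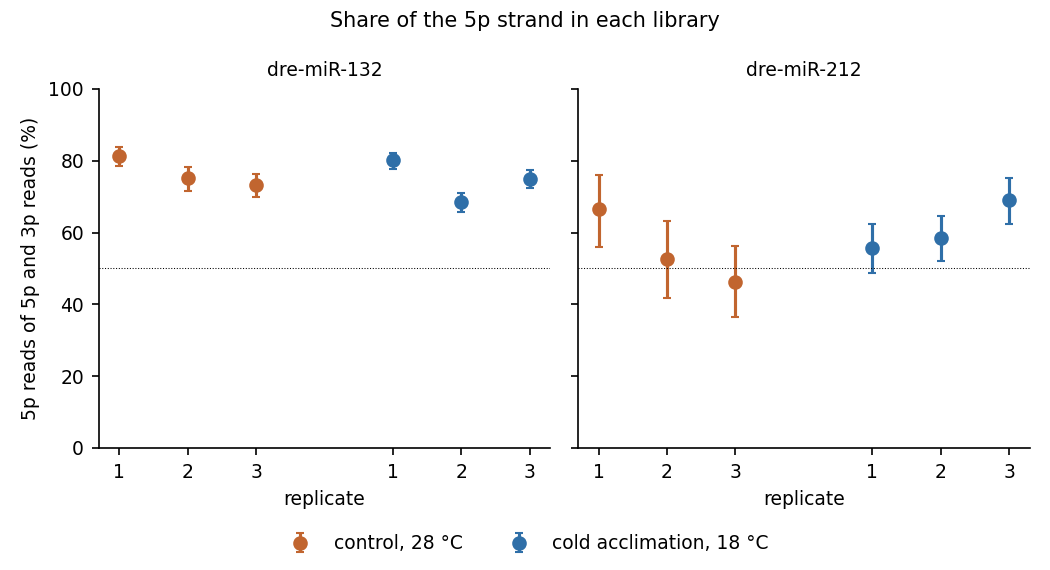
Share of the 5p strand in the 5p and 3p reads of miR-132 and of miR-212, in percent, in each library, with Wilson 95% intervals. The row dre-miR-212 is left out. The dotted line marks equal strands. All 6 libraries of miR-132 lie above it, between 68.5% and 81.4%, and the libraries of miR-212 lie between 46.2% and 69.2%.

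Replicates of a condition differed in the strand balance of miR-132 by more than counting error. For miR-212 the Wilson 95% intervals of the 5p share overlapped within each condition, but some only just. They were 55.9% to 76.0% and 36.5% to 56.3% in control replicates 1 and 3. In cold acclimation replicates 1 and 3 they were 48.6% to 62.5% and 62.4% to 75.2%. Such an overlap does not show that these replicates differed by no more than counting error. The Wilson 95% intervals of the miR-132 5p share did not overlap between control replicate 1 (78.5% to 83.9%) and control replicate 3 (70.0% to 76.3%), nor between cold acclimation replicate 1 (77.8% to 82.2%) and cold acclimation replicate 2 (65.8% to 71.1%). In control replicate 1, dre-miR-132-5p and dre-miR-212-5p were above their control means by 0.16 and 0.13 on log2(CPM + 1), while dre-miR-132-3p, dre-miR-212-3p and dre-miR-212 were at -0.22, -0.36 and -0.40 relative to theirs. Both hairpins therefore had a higher 5p balance there, by 0.38 for miR-132 and 0.50 for miR-212 relative to the control mean, while the median over the 54 hairpins in that library was 0.036. In the cold acclimated libraries the hairpins did not move alike, with 0.43, -0.43 and 0.0083 for miR-132 and -0.29, -0.13 and 0.43 for miR-212 in replicates 1, 2 and 3. Cold acclimation replicate 3 was below the mean of its condition for all 5 strands, by between -0.049 and -0.60. What sets these differences between replicates was not tested.

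The coefficient of variation between replicates was also above that from counting for every strand in both conditions, except for dre-miR-212-5p in control cells. For dre-miR-132-3p in cold acclimated cells the coefficient of variation was 25.4%, against 5.70% from counting alone, and for dre-miR-212 it was 43.3% against 15.5%. For dre-miR-212-5p it was 15.4% against 8.82% in cold acclimated cells, and 10.8% against 14.7% in control cells. A value from 3 libraries that is below the one from counting does not show that these controls differed by no more than counting error.

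miR-212 was set against miR-132 to ask whether the 2 miRNAs moved by the same factor. Their strands summed to 6.68, 8.39 and 8.76 CPM for miR-212 in the control libraries and to 19.8, 25.2 and 16.0 CPM in the cold acclimated ones. For miR-132 the sums were 53.1, 47.3 and 51.3 CPM and 106.7, 101.3 and 83.3 CPM. miR-132 exceeded miR-212 by factors of 7.94, 5.64 and 5.86 in the control libraries and of 5.39, 4.02 and 5.22 in the cold acclimated ones. The cold acclimated libraries had the lower factors without overlap. The closest, 5.64 and 5.39, lay near each other, and counting error was not carried into these factors. On the log2 scale the ratio of miR-212 to miR-132 was higher by 0.40 in cold acclimated cells (exact two-sided permutation test, p = 0.1, the smallest p possible), but by 0.25 when control replicate 1 was left out and by 0.27 when cold acclimation replicate 2 was (p = 0.3 for both, exact permutation test), and p was 0.2 when cold acclimation replicate 3 was. With the row dre-miR-212, whose split of reads is uncertain, left out of the sum, the ratio was higher by 0.57 (exact permutation test, p = 0.1).

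The strands were then compared arm by arm, with the row dre-miR-212 left out of both arms. Counted with the 3p arm, it would raise every 3p ratio below, by a smaller factor in cold acclimated than in control libraries. That ratio was not computed. dre-miR-212-5p was at 8.36%, 8.62% and 7.89% of the level of dre-miR-132-5p in the control libraries and at 10.5%, 17.3% and 15.7% in the cold acclimated ones. All controls were below the cold acclimated libraries. The controls lay close together (8.29% ± 0.372, SD, n = 3), although counting alone gave dre-miR-212-5p a coefficient of variation of 14.7% in control. Their closeness is therefore no measure of precision, and counting error was not carried into these ratios. The log2 ratio was higher by 0.77 in cold acclimated cells (exact two-sided permutation test, p = 0.1, the smallest p possible; this arm was singled out after its values were seen). dre-miR-212-3p was at 18.2%, 23.6% and 25.1% of dre-miR-132-3p in control libraries and at 33.5%, 26.7% and 21.0% in the cold acclimated ones. Here the conditions overlapped, and the log2 ratio was higher by 0.26 (exact permutation test, p = 0.4). Whether the arms differ from each other in this respect was not tested. The row dre-miR-212 had 0.704, 0.921 and 0.680 of the level of dre-miR-212-3p in control and 0.523, 0.550 and 0.410 in cold acclimated libraries, without overlap, subject to the uncertain split of reads between these rows. These ratios rest on 19 to 55 reads of dre-miR-212 and 27 to 100 reads of dre-miR-212-3p. Counting error was not carried into them, and their difference between the conditions was not tested.

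**Figure D5:**
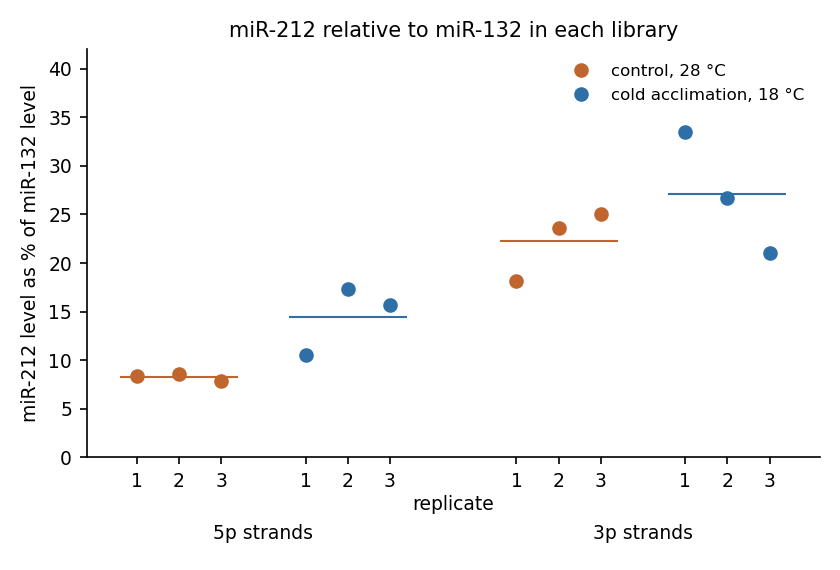
Level of miR-212 as a percentage of the level of miR-132 in each library, for the 5p strands on the left and the 3p strands on the right, with horizontal lines at the means of 3 libraries. The row dre-miR-212 is left out. The 5p points of control lie between 7.89% and 8.62%, below every cold acclimated point, and the 3p points of the conditions overlap.

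The miRNAs whose levels followed the 5 strands most closely over the 6 libraries were found by the Pearson correlation of log2(CPM + 1) with the mean of the 5 strands. They were dre-miR-15a-3p (r = 0.997), dre-miR-375 (r = 0.994) and dre-miR-15a-5p (r = 0.993). miR-15a belongs to the miR-15/16 family, known for restraining the cell cycle, and miR-375 is a miRNA of pancreatic islets. dre-miR-15a-3p had 32.5, 37.0 and 45.9 CPM in the control libraries and 100.2, 127.4 and 73.0 CPM in the cold acclimated ones, which repeats the low control replicate 1 and the high cold acclimation replicate 2 of the 3p strands. The strands themselves correlated with their own mean at r = 0.80 for dre-miR-212 to 0.98 for dre-miR-212-3p. These values describe 6 points that share the condition and the library.

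Other miRNAs known from neurons were then examined. Of 31 rows of miR-7, miR-9, miR-124, miR-128, miR-129, miR-137, miR-138, miR-153, miR-218 and miR-219, 18 were tested. 2 of them rose and 1 fell, where 16.5% of all tested miRNAs rose and 14.5% fell, and their median log2 fold change was 0.16, against 0.019 over all tested miRNAs. The smallest adjusted p values were those of dre-miR-124-4-5p, a partner strand of miR-124, with 0.334, 0.292 and 0.276 CPM in the control libraries and 11.3, 10.5 and 9.09 CPM in the cold acclimated ones, and of dre-miR-7a, with 12.7, 13.5 and 11.4 CPM against 6.13, 5.87 and 5.08 CPM. dre-miR-124-4-5p passed the filter of 1.5 CPM only through its level in cold acclimated cells. The other miR-124 rows were too low to be tested. Their control and cold acclimated means were 0.205 and 0.14 CPM for dre-miR-124-3p and 0.375 and 0.481 CPM for dre-miR-124-5p. For dre-miR-124-6-5p they were 1.34 and 0.996 CPM. The most abundant of the 31 rows, dre-miR-218a, had 1070 ± 162 CPM in control and 948 ± 183 CPM in cold acclimated cells (SD, n = 3 each; log2 fold change -0.18, adjusted p = 0.462 from limma). The remaining one that rose was dre-miR-129-5p, by 0.87 on the log2 scale (limma, adjusted p = 0.0095); it is named here because of that value.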

How the data were processed

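Small RNA libraries of 3 control and 3 cold acclimation samples were sequenced (single end, 50 bp). Clean reads of 17 to 35 nt were matched by the authors to miRBase 22 (Bowtie2 2.3.0 in the submitters' processing notes), and miRCat gave the predicted miRNAs. The deposited table holds CPM, named TPM by the authors, of 349 known and 65 predicted miRNAs. The same notes name danRer10. Reads per strand were obtained as the CPM divided by the value of 1 read (largest deviation 0.00059 reads).

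The conditions were compared on log2(CPM + 1) by lmFit and eBayes with a trend (limma 3.58.1, R 4.3.3) over the 310 miRNAs with a mean above 1.5 CPM, with Benjamini-Hochberg adjustment over all of them. Rose and fell stand for an adjusted p under 0.01. The further 2.5-fold threshold is that of the study. Strand balances were fitted likewise over 54 hairpins with rows named 5p and 3p. Exact permutation tests, all two-sided, served for single ratios. Intervals cover counting error only where named Poisson or Wilson, and PCR copies are not independent molecules. Both fits were tested on simulated data without a change in library composition, so the choice of scaling was not tested there. The changes put into the simulated strand balances were larger than those measured for miR-132 and miR-212, so changes of the measured size were not tested either.

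The strands named are the 5 chosen by name, the 3 miRNAs most correlated with their mean, and, of the neural list, the most abundant and the 2 that were lowest in adjusted p. Cell type markers and dre-miR-129-5p are named besides, the latter and the single markers after their values were seen. The members and lists were chosen with earlier results of these data known. No column was left out (0 unmapped) and no libraries were identical (0). Same-numbered libraries were not treated as pairs. Matplotlib 3.10.9 (Python 3.11.15) was used for the figures.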

Additional observations from a re-analysis of the deposited data

How the results depend on the processing

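dre-miR-212-5p rose in all 14 alternatives that tested it (log2 fold change 0.89 to 1.64, adjusted p 0.00023 to 0.0040 from limma), and dre-miR-212 in none of its 14 (0.24 to 0.79, adjusted p 0.0457 to 0.513). The number of strands that rose went from 3 to 1 with clean reads as library sizes and also to 1 with totals that omit the abundant dre-let-7a and dre-miR-100-5p. In these scalings dre-miR-132-5p had log2 fold changes of 0.58 and 0.73 and dre-miR-132-3p of 0.70 and 0.85, no longer past the threshold. dre-miR-132-3p, at 0.99, also missed it without a filter (adjusted p = 0.0150). With median-of-ratios scaling dre-miR-212-3p passed (log2 fold change 0.97, adjusted p = 0.0079). With 1 library left out, 1 to 4 strands rose, and the log2 fold change was 0.75 to 0.98 for dre-miR-132-5p, 0.80 to 1.10 for dre-miR-132-3p and 0.86 to 1.28 for dre-miR-212-3p. The miR-132 strand balance of -0.11 turned to 0.0078 with log2(CPM + 5), and lay between -0.33 and 0.10 with 1 library left out. The cause was not tested.

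With a replicate block, 2 strands rose (dre-miR-132-3p missed, log2 fold change 0.99, adjusted p = 0.0134), 39 miRNAs rose and 30 fell in all, the strand balances were -0.11 and 0.36, and the log2 ratio of miR-212 to miR-132 was 0.40 (exact sign-flip test, p = 0.25, the smallest possible). Same-numbered libraries had correlated deviations of only 0.015, 0.14 and 0.060, though each library correlated best with its own number, and the labels do not say that a number is shared. The fold change of dre-miR-212-5p fell below 2.5 with clean reads as library sizes (log2 fold change 1.12), with the reduced totals (1.30), with log2(CPM + 5) (0.89) and without cold acclimation replicate 2 (1.30).

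Over all 310 tested miRNAs, 51 rose and 45 fell. With clean reads as sizes 32 rose and 77 fell, followed by 51 and 67 with median-of-ratios scaling and 37 and 64 with the reduced totals. With known miRNAs alone, where 245 were tested, 41 rose and 27 fell. At an adjusted p under 0.05 the numbers were 75 and 77. With 1 library left out 24 to 68 rose and 18 to 67 fell. Of the 54 hairpins 12 changed in strand balance, 9 with log2(CPM + 0.1), 8 with log2(CPM + 5), 18 of 103 without a filter, 7 of 43 above 7.5 CPM, and 2 to 11 with 1 library left out. The filter at 7.5 CPM removed the 3 miR-212 rows. The planned count models were not run, since too few low values per library were there to meet the minimum set for recovering reads.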
